A study of Mus musculus with 6 samples.

Results

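The ephrins are the 8 cell-surface ligands of the Eph receptor tyrosine kinases. Their genes were taken from a table of newborn mouse striatum by symbol, Efna1 to Efna5 and Efnb1 to Efnb3, and all 8 were found among 47062 listed genes. The mutant group had 3 libraries from mice with the Drd2-Cre transgene and Sp9Flox/Flox alleles, and the control group had 3 libraries from littermates with Sp9Flox/Flox alone. All mice were at postnatal day 0 and shared a mixed background of C57BL/6J, 129S6 and CD1, and the dissected striatum included the subventricular zone. Cre came from a transgene controlled by the gene for the dopamine D2 receptor, which marks the indirect pathway (striatopallidal) neurons, and both groups carried the floxed alleles of the transcription factor gene Sp9. No group carried Cre without those alleles, so the deletion and the transgene cannot be told apart, and the labels do not say whether a library came from 1 animal.

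Ephrins stay attached to the membrane of the cell that makes them, so they act on neighbouring cells by contact. The ephrin-A proteins are held by a lipid (GPI) anchor and mainly bind EphA receptors, whereas the ephrin-B proteins cross the membrane and mainly bind EphB receptors, with EphA4 taking ligands of both classes. Signals run forward into the receptor's cell and in reverse into the ligand's cell. In the developing forebrain they guide axons and sort cells, and in the mouse striatum they take part in the separation of striosome and matrix neurons.

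The libraries held 16231012 to 19454334 fragments in genes, as estimated from the scaled count columns described under Efna5. Sp9 had 8.37, 7.93 and 9.67 FPKM (mapped fragments adjusted for transcript length and sequencing depth) in mutant replicates 1 to 3, against 20.1, 19.0 and 17.3 FPKM in control replicates 1 to 3, with every mutant below every control. Of 10 markers shared by striatal projection neurons, none was at 0 in all libraries, and Ppp1r1b, which encodes DARPP-32, averaged 187 ± 19.6 FPKM in mutants and 200.4 ± 13.8 FPKM in controls (SD, n = 3 each). Control replicate 3 was the only library from a male by Xist and Y-linked genes, and the effect of sex cannot be separated from it.

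Efna5 was the ephrin whose groups separated, and the region before its start is shown because the deleted factor belongs to the Sp family, whose members bind GC boxes. The 250 bases upstream of the RefSeq start of Efna5 (GRCm38.p6, chr17:62881318-62881567, minus strand) are printed 5′ to 3′ with each GC box in capitals, and those of Efnb2 (chr8:8661243-8661492, minus strand), an ephrin whose groups overlapped, follow for comparison.
Efna5: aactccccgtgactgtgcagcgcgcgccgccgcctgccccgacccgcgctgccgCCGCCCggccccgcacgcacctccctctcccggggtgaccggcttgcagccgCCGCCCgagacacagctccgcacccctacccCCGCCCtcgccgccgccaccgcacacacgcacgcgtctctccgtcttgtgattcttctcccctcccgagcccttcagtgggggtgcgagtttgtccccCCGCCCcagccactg
Efnb2: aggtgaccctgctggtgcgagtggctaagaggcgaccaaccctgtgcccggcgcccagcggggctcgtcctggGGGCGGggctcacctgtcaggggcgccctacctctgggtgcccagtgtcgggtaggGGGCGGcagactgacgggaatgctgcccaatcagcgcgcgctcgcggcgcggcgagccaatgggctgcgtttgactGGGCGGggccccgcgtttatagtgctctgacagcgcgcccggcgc
The motif searched was GGGCGG, which reads CCGCCC when it lies on the other strand. The Efna5 window held 4 matches, all as CCGCCC, and the Efnb2 window held 3, all as GGGCGG. Of 32851 RefSeq windows of this length, 32.7% held at least 1 match, 8.47% at least 3 and 4.09% at least 4. The base composition of the windows differed, with 74.8% G or C for Efna5 and 72% for Efnb2 against a median of 52.4% over all windows. RefSeq windows were matched for 7 of the 8 genes, 9 windows in all, of which 7 held a match. Efna2 had 2 matches, the windows of Efna1 had 2 and 1 and those of Efna3 had 3 each, while the windows of Efna4 and Efnb1 held none. Binding of Sp9 was not measured, and a match is a run of letters and not a site.

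In the control striatum the ephrins ranged from barely detected to abundant. Efnb3 had the highest level at 60.9 ± 2.41 FPKM and Efna1 the lowest at 0.691 ± 0.237 FPKM (SD, n = 3 each). Between them, in falling order of the control mean, came Efnb2, Efna3, Efna2, Efnb1, Efna5 and Efna4. The mutant means gave each ephrin the same rank. In the controls only Efna3 and Efna2 had ranges that met their neighbour's, so their order is not settled by these libraries, and in the mutants this was also so of Efna4 and Efna1. FPKM is scaled to transcript length, which allows this comparison between genes.

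**Figure D1:**
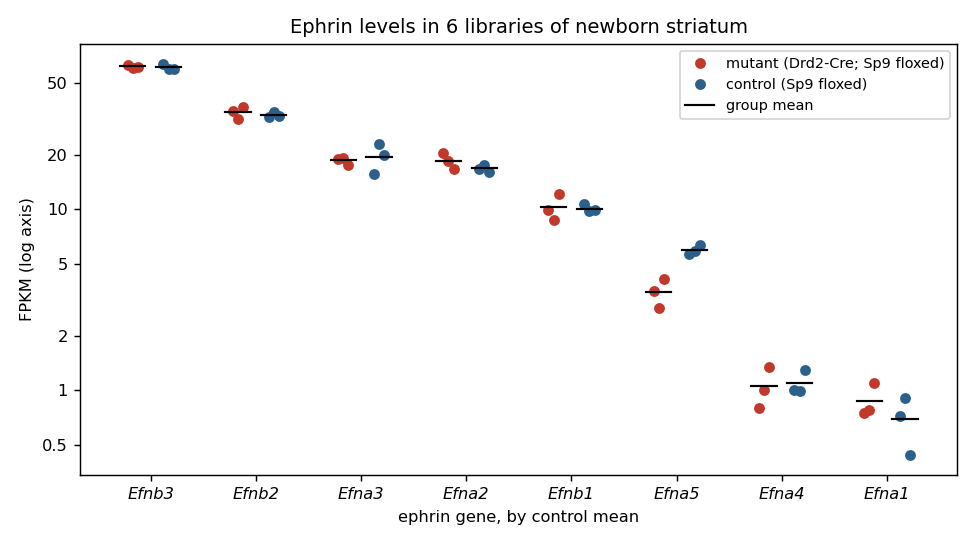
FPKM of the 8 ephrin genes on a log axis, with 1 point per library, mutants in red to the left of controls in blue, a line at each group mean (n = 3 each), and genes ordered by control mean. Efnb3 sits near 60.9 FPKM at the top and Efna1 near 0.691 FPKM at the bottom of the controls, and Efna5 is the only gene whose mutant and control points do not overlap.

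The 3 ephrin-B genes supplied most of the ephrin signal. Their summed level was 107, 101 and 110 FPKM in mutant replicates 1 to 3, against 107, 104 and 102 FPKM in control replicates 1 to 3. The 5 ephrin-A genes together had 44.4, 42.3 and 41.0 FPKM in the mutants, against 39.8, 48.3 and 44.2 FPKM in the controls. The summed ligand level thus overlapped between the groups for both classes. Ephrin-B made up 70.8, 70.4 and 72.9% of the summed level in the mutants, against 72.9, 68.2 and 69.9% in the controls. Within the ephrin-A class, Efna5 contributed 8.0, 6.69 and 10.01% in the mutants, against 14.2, 12.2 and 14.4% in the controls, and these shares did not overlap.

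Efna5 (ENSMUSG00000048915, GRCm38 chr17:62604184-62881317, minus strand) encodes ephrin-A5, an axon repellent known from retinal map formation. Its level was 3.55, 2.83 and 4.10 FPKM in mutant replicates 1 to 3, against 5.64, 5.91 and 6.38 FPKM in control replicates 1 to 3. All mutant libraries lay below all controls. The means were 3.50 ± 0.634 FPKM in mutants and 5.98 ± 0.372 FPKM in controls (SD, n = 3 each), a difference of -41.5%. The log2 fold change was -0.71 ± 0.14 (SE; 95% interval -1.046 to -0.371) on the log2(FPKM + 0.5) scale. The unadjusted p was 0.00234 and the adjusted p 0.566 with limma over 16666 genes, so Efna5 was not called on FPKM, and an exact permutation test (two-sided) gave 0.1, the least possible with 3 libraries a side. Fewer cells that express Efna5 and less Efna5 RNA per cell cannot be told apart in bulk tissue.

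The authors' count columns gave a similar difference with less spread within the groups. They are called scaled counts here, because in each library 98.7 to 98.9% of the low values lay within 0.1 of a whole multiple of 1 step, so they appear to hold fragments multiplied by 1 factor per library. Efna5 had 206, 176 and 210 scaled counts in mutant replicates 1 to 3, against 316, 332 and 332 in control replicates 1 to 3. Divided by the step, this is 211, 181 and 182 fragments in the mutants, against 300.1, 322 and 291 fragments in the controls. The mutants again lay below every control, with a difference of -39.7% between the means. On log2(scaled count + 1) the log2 fold change was -0.73 ± 0.10 (SE), with an adjusted p of 0.0400 in limma over 16125 genes. Efna5 therefore fell by this measure, but the call was lost without any 1 of the 6 libraries (adjusted p from 0.0504 without mutant replicate 3 to 0.231 without control replicate 3).

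The spread within the mutants differed between these scales. The SD of the Efna5 mutants was 18.1% of their mean on FPKM, whereas their scaled counts were 197 ± 18.8 in mutants and 327 ± 9.45 in controls (SD, n = 3 each). The number of scaled counts per FPKM, which stands for the transcript length that the FPKM assumed, was 58.0, 61.9 and 51.2 for Efna5 in mutant replicates 1 to 3, against 56.0, 56.2 and 52.1 in control replicates 1 to 3. For Efna1 the same ratio lay between 26.0 and 26.1 in all 6 libraries. The Efna5 ratio was lowest in mutant replicate 3, which had the highest Efna5 FPKM of the mutants, and highest in mutant replicate 2, which had the lowest. The part of this ratio in the FPKM spread was not tested.

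**Figure D2:**
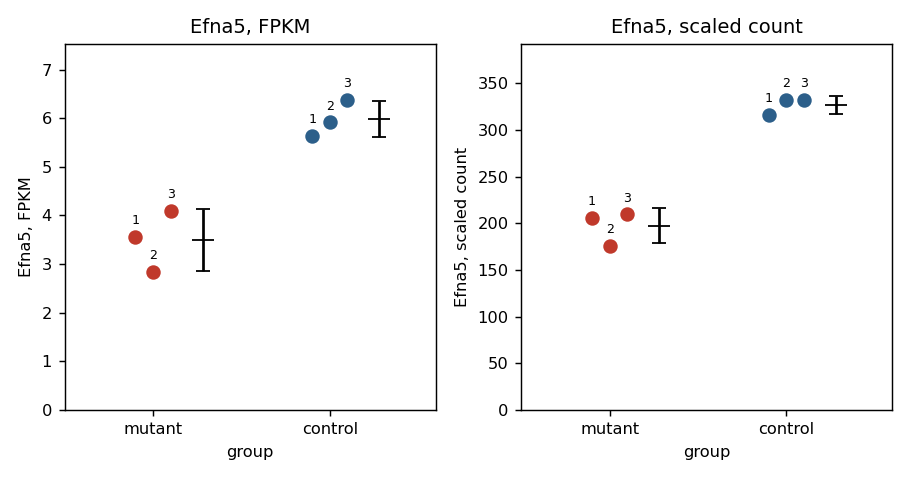
Efna5 in each library as FPKM (left panel) and as scaled counts (right panel), mutants left of controls, with replicate numbers above the points and bars showing the mean ± SD of each group (n = 3). Mutants reach at most 4.10 FPKM and 210 scaled counts, below the lowest controls at 5.64 FPKM and 316 scaled counts.

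Markers of cell types moved with the groups beside Efna5. Of 10 indirect pathway markers, 8 had mutants below every control, as 6.05% of all genes did, and 2, Adora2a and Grik3, fell past the adjusted threshold on FPKM with limma. On scaled counts 6 passed it, beside 0.143% of all genes, namely these 2, Gpr6, P2ry1, Ptprm and the deleted gene Sp9, which is itself on the list. Sp9 is also among the 8. The list was chosen with earlier results of these data known, so its counts are a description and not an independent test. The summed level of the 10 markers was 118 to 147 FPKM in mutants, against 258 to 292 FPKM in controls, and no marker was at 0 in all libraries. The list has Drd2 itself, which averaged 44.4 ± 1.97 FPKM in mutants and 45.0 ± 3.25 FPKM in controls (SD, n = 3 each). Of 10 markers shared by both projection neuron classes, none passed the adjusted threshold on FPKM, 3 had mutants below every control, and their sum was 1467 to 1570 FPKM in mutants, against 1580 to 1673 FPKM in controls. Meningeal fibroblast markers, 5 genes, summed to 3.83 to 4.48 FPKM in mutants, against 2.88 to 3.66 FPKM in controls, and none of the 3 tested passed at an unadjusted p under 0.05. Of 15 cell type lists, these 3 had sums that did not overlap between the groups, and 12 had sums that did.

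Single markers separated the groups in lists whose sums overlapped. Of 9 direct pathway markers, 4 had groups that did not overlap, beside 11.4% of all genes, and none passed the adjusted threshold on FPKM or scaled counts. Drd1, the dopamine D1 receptor gene, averaged 39.3 ± 2.91 FPKM in mutants and 23.7 ± 4.31 FPKM in controls (SD, n = 3 each; adjusted p = 0.566, limma). Pdyn, at 1.43 times the control mean, and Sfxn1, with 37.6 ± 2.36 FPKM in mutants and 27.7 ± 3.02 FPKM in controls, also had every mutant above every control. Isl1 had every mutant below every control, with 54.7 ± 1.34 FPKM in mutants and 64.3 ± 3.57 FPKM in controls. The direct pathway sum, 475 to 522 FPKM in mutants against 459 to 488 FPKM in controls, was led by Tac1, with 254 ± 34.2 FPKM in mutants and 256 ± 12.6 FPKM in controls. Of 6 medial eminence interneuron markers, Lhx8 and Nxph1 were higher in every mutant than in every control, and none passed the adjusted threshold. On scaled counts the groups of Pdyn overlapped, and those of the other 5 genes did not. Among 7 astrocyte and radial glia markers, Sox9 had every mutant below every control on both scales, with 6.85 ± 1.37 FPKM in mutants and 15.1 ± 1.46 FPKM in controls. It passed the adjusted threshold on scaled counts (0.0195, limma) but not on FPKM (0.238), while 5 of the 7 had log2 fold changes above 0. Among 5 microglia markers, Cx3cr1 and C1qa were higher in every mutant on FPKM, but Cx3cr1 overlapped on scaled counts. For the interneuron, astrocyte and microglia lists too, the share of all genes whose groups did not overlap on FPKM was 11.4%, counting both directions. The part of these cell types in the Efna5 difference was not tested.

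The striatal compartments that Eph signalling helps to sort were read from 7 striosome and 5 matrix markers. The striosome markers summed to 488 to 577 FPKM in mutants, against 557 to 593 FPKM in controls, with none past the adjusted threshold in limma and, at an unadjusted p under 0.05, 2 members lower and 1 higher, beside 2.99 and 2.65% of all genes. The matrix markers, which include Epha4, summed to 222 to 306 FPKM in mutants, against 229 to 273 FPKM in controls, and no member passed either threshold on FPKM. On scaled counts 1 member, Calb1, was higher at an unadjusted p under 0.05 (limma unadjusted p = 0.0195, adjusted p = 0.654). Both sums overlapped between the groups.

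Among the mutants, Efna5 also had the same order as the cortical glutamatergic markers. The summed FPKM of these 7 markers was 34.5, 8.20 and 54.5 in mutant replicates 1 to 3, against 19.7, 22.2 and 7.17 in control replicates 1 to 3. Mutant replicate 3, with the most cortical signal, had the highest Efna5 level of the mutants, and mutant replicate 2, with the least, had the lowest. This order was not particular to the cortical list. The progenitor sums had it too, with 113, 83.4 and 135 FPKM in mutant replicates 1 to 3, as did the striosome and meningeal fibroblast sums, Efnb1 and Efnb2. On scaled counts Efna5 was close in mutant replicates 1 and 3, at 206 and 210. In the controls the order was not shared, since control replicate 3 had the least cortical signal and the most Efna5. Without mutant replicate 3 the log2 fold change of Efna5 on FPKM was -0.82, and without mutant replicate 2 it was -0.58.

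The other ephrin-A genes had groups that overlapped, and none was called on FPKM or scaled counts. Efna2 (chr10:80179482-80190010, plus strand) encodes ephrin-A2, a partner of ephrin-A5 in retinal mapping. It had 20.3, 18.5 and 16.8 FPKM in mutant replicates 1 to 3, against 16.7, 17.6 and 16.1 FPKM in control replicates 1 to 3. The 2 highest libraries were mutants, but the third lay inside the control range, and the log2 fold change was 0.13 (95% interval -0.07 to 0.34; adjusted p = 0.888, limma).

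Efna3 (chr3:89313899-89322965, minus strand) encodes ephrin-A3, which in the mouse hippocampus is made by astrocytes and acts on dendritic spines through EphA4. It had 19.0, 19.2 and 17.6 FPKM in mutant replicates 1 to 3, against 15.7, 22.9 and 19.98 FPKM in control replicates 1 to 3. The controls thus held both the lowest and the highest library, and their SD was 3.62 FPKM against 0.857 FPKM in the mutants. The log2 fold change was -0.05 (95% interval -0.40 to 0.29; adjusted p = 0.977, limma), and it was 0.07 without control replicate 2. An antisense gene, Gm15998, covers 14.1% of the exonic bases of Efna3 and averaged 0.450 FPKM. Whether the counting used strand is not stated, so their fragments cannot be told apart there.

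Efna4 and Efna1 lie beside Efna3 on chromosome 3 and were near the floor of detection. Efna4 (chr3:89333390-89338028, minus strand), another GPI-anchored ligand, had 0.804, 1.01 and 1.35 FPKM in mutant replicates 1 to 3, against 1.01, 0.991 and 1.30 FPKM in control replicates 1 to 3. Efna1 (chr3:89271733-89281142, minus strand), a ligand of EphA2 known from human endothelial cells, where TNF induces it, had 0.747, 0.782 and 1.10 FPKM in mutant replicates 1 to 3, against 0.726, 0.908 and 0.439 FPKM in control replicates 1 to 3. The groups overlapped in both genes. These levels rest on 23.0 to 33.0 fragments a library for Efna4 and 10 to 25 for Efna1, and their 95% intervals reached from -0.50 to 0.40 and from -0.31 to 0.75 on the log2 scale, so a rise of Efna1 as large as the difference in Efna5 lies within its interval. An antisense gene covers 10.5% of the exonic bases of Efna4 and averaged 0.228 FPKM.

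The ephrin-B genes were abundant and differed little between the groups. Efnb3 (chr11:69554092-69560205, minus strand) encodes the midline ligand that stops corticospinal axons through EphA4. It had 62.6, 60.4 and 61.3 FPKM in mutant replicates 1 to 3, against 63.7, 59.4 and 59.7 FPKM in control replicates 1 to 3. The mutants lay inside the control range, and the log2 fold change was 0.01 (95% interval -0.09 to 0.11; adjusted p = 0.984, limma), the narrowest interval of the 8 genes.

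Efnb2 (chr8:8617434-8661242, minus strand), which marks arterial endothelium and is also made by neural cells, had 34.9, 31.4 and 36.5 FPKM in mutant replicates 1 to 3, against 32.4, 34.6 and 32.9 FPKM in control replicates 1 to 3. The mutants spread around the controls, with a log2 fold change of 0.04 (95% interval -0.13 to 0.20; adjusted p = 0.956, limma). Markers of vessel cells, 10 genes, summed to 56.5 to 63.2 FPKM in mutants, against 55.1 to 65.4 FPKM in controls, and none of them passed at an unadjusted p under 0.05. Efnb1 (chrX:99136130-99148991, plus strand), the X-linked ephrin-B, had 9.95, 8.69 and 12.2 FPKM in mutant replicates 1 to 3, against 10.6, 9.78 and 9.86 FPKM in control replicates 1 to 3. Its mutants held both the lowest and the highest library (log2 fold change 0.01, 95% interval -0.30 to 0.32; adjusted p = 0.996, limma). The male library, control replicate 3, lay between the other 2 controls.

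Counted over the family, 0 of 8 ephrins passed an adjusted p of 0.05 on FPKM with limma, where 0.06% of all genes tested did. At an unadjusted p under 0.05, 1 of 8 was lower (Efna5), beside 2.99% of all genes, and none was higher, beside 2.65%. The groups did not overlap in 1 of 8, beside 11.4% of all genes. On scaled counts, 1 of 8 passed the adjusted threshold, beside 0.143% of all genes. The study's own rule was at least a 2-fold change with an unadjusted p of at most 0.05. With these cut-offs on the limma fit of FPKM, not on the study's own test, no ephrin was changed, and 0.342% of all genes were. The median log2 fold change was 0.01 over the ephrins and -0.00016 over all genes tested. The counts above 0 rest on Efna5 alone in the fits of all 6 libraries. Without mutant replicate 3, Efna2 was also past an unadjusted p of 0.05, as higher (log2 fold change 0.20; limma unadjusted p = 0.0377, adjusted p = 0.768).

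The Eph receptors, the partners of these ligands, had no member past the adjusted threshold on FPKM or scaled counts. Of 14 receptors, Epha1 and Epha2 were under the filter on low values, and 12 were tested on FPKM. Epha4, which binds both ligand classes, was the most abundant with 94.6 ± 6.80 FPKM in mutants and 101 ± 13.5 FPKM in controls (SD, n = 3 each). At an unadjusted p under 0.05, 1 was lower and 1 was higher, beside 2.99 and 2.65% of all genes. Ephb1, an ephrin-B receptor, had 59.5, 56.1 and 60.0 FPKM in mutant replicates 1 to 3, against 64.2, 66.9 and 65.4 FPKM in control replicates 1 to 3. Every mutant lay below every control, by a log2 fold change of -0.16 (limma unadjusted p = 0.00789, adjusted p = 0.727). Epha7, a receptor of ephrin-A5, had 53.7, 58.1 and 52.7 FPKM in mutant replicates 1 to 3, against 44.6, 51.5 and 49.3 FPKM in control replicates 1 to 3. Every mutant lay above every control, by a log2 fold change of 0.18 (limma unadjusted p = 0.0435, adjusted p = 0.858). The next smallest p-values were those of Ephb6, a receptor without kinase activity, with 28.4 ± 4.11 FPKM in mutants and 24.3 ± 3.88 FPKM in controls, and of Epha6, with 0.790 ± 0.234 and 0.554 ± 0.201 FPKM in the same order. The receptor list had a median log2 fold change of 0.10.

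**Figure D3:**
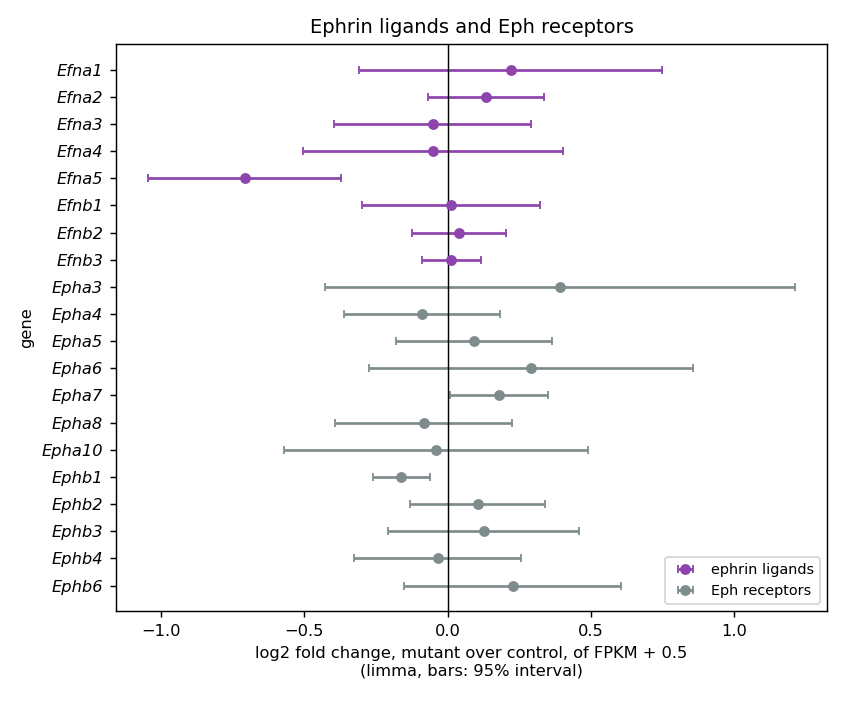
Log2 fold change of mutant over control on the log2(FPKM + 0.5) scale for the 8 ephrins (purple, above) and the 12 tested Eph receptors (grey, below), with the 95% interval of the limma fit as bars. The Efna5 interval runs from -1.046 to -0.371, and those of Ephb1 and Epha7 also leave out 0, with estimates of -0.16 and 0.18.

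Genes that carry the signal onward were counted in lists of forward and reverse signalling. Of 22 forward signalling genes, 0 passed the adjusted threshold on FPKM, 2 were lower and none was higher at an unadjusted p under 0.05, beside 2.99 and 2.65% of all genes, with a median log2 fold change of -0.03. The 2 were exchange factors that Eph receptors engage. Ngef (ephexin 1) had 131, 143 and 117 FPKM in mutant replicates 1 to 3, against 156, 157 and 170 FPKM in control replicates 1 to 3 (log2 fold change -0.31; adjusted p = 0.763, limma). Arhgef15, known from endothelial cells and from EphB2 signalling, averaged 6.65 ± 0.848 FPKM in mutants and 9.17 ± 1.08 FPKM in controls (SD, n = 3 each; adjusted p = 0.781, limma). The groups did not overlap in either gene, nor in Chn1, the Rac-inactivating chimaerin downstream of EphA4, which averaged 60.9 ± 1.03 FPKM in mutants and 64.1 ± 1.65 FPKM in controls. These 3 of 22 compare with 11.4% of all genes. On scaled counts the groups of Ngef still did not overlap, those of Arhgef15 and Chn1 did, and the log2 fold change of Arhgef15 was -0.19 (limma unadjusted p = 0.116) against -0.44 on FPKM.

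Of 13 genes for reverse signalling and shedding, 12 were tested on FPKM, Ngfr being under the filter, and 0 passed the adjusted threshold. At an unadjusted p under 0.05, 1 was lower and 1 was higher, beside 2.99 and 2.65% of all genes, with a median log2 fold change of -0.03. Ntrk2, which encodes the neurotrophin receptor TrkB, had 56.0, 54.0 and 59.8 FPKM in mutant replicates 1 to 3, against 61.1, 67.6 and 66.3 FPKM in control replicates 1 to 3 (log2 fold change -0.20; adjusted p = 0.786, limma). Rgs3, whose product binds the tail of ephrin-B, averaged 5.91 ± 0.186 FPKM in mutants and 4.94 ± 0.509 FPKM in controls (log2 fold change 0.24; adjusted p = 0.858, limma). The groups did not overlap in either gene on FPKM, but on scaled counts those of Rgs3 did, and it did not pass there (limma unadjusted p = 0.0925). Ret, a partner of ephrin-A in mouse motor axons, averaged 0.691 ± 0.0816 FPKM in mutants and 0.539 ± 0.0744 FPKM in controls.

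The genes most like Efna5 over the 6 libraries were sought among 9320 other protein-coding genes with a mean of at least 5 FPKM. By Pearson's r of log2(FPKM + 0.5) they were Acvr1, a BMP receptor (0.996), Xpr1, a phosphate exporter (0.992), Kctd8, an auxiliary subunit of GABA-B receptors (0.992), Scube1, a secreted protein (0.989), and Foxo3, a transcription factor (0.988). All 5 were lower in every mutant than in every control, which largely follows from choosing them by likeness to Efna5. Scube1 had 6.77, 5.93 and 8.06 FPKM in mutant replicates 1 to 3, against 11.7, 11.5 and 11.7 FPKM in control replicates 1 to 3, with a log2 fold change of -0.72 close to that of Efna5. It was called on scaled counts (adjusted p = 0.0351, limma) and not on FPKM (0.364). The likeness is a description of the same 6 libraries, all of which carry the difference between the groups. For Efnb3, the most abundant ephrin, the 5 most alike were Anapc2 (0.991), Rictor (0.989), Pds5b (0.988), 4932438A13Rik (0.972) and Adam11 (0.969), and all of them had groups that overlapped.

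**Figure D4:**
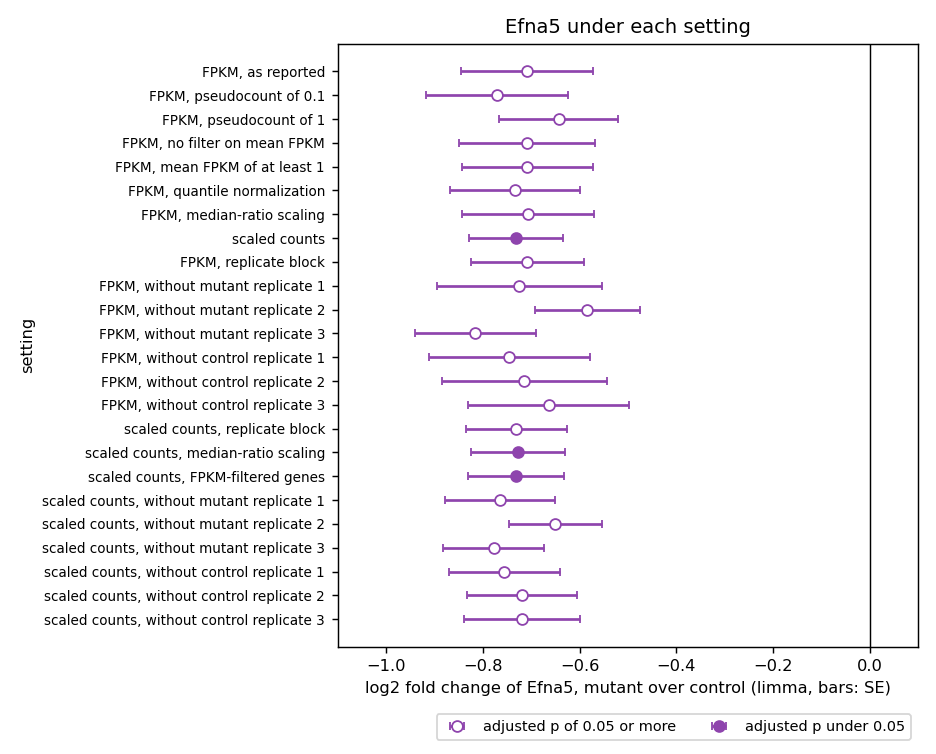
Log2 fold change of Efna5, mutant over control, under each processing setting, with SE bars from limma and filled points where the adjusted p was under 0.05. All estimates lie between -0.82 and -0.58, and the filled points are the fits on scaled counts of all 6 libraries without a replicate block.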

How the data were processed

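RNA was measured in 6 libraries, 3 mutant and 3 control, grouped by the titles and sample codes in the labels. The authors deposited 1 table with an FPKM column and a count column per library, per the file headers. The submitters' processing notes list genome build GRCm38.p4, Cufflinks 2.1.1 and TopHat, the last without a version. The deposited count columns are not whole and were treated as a signal (scaled counts), so no count model was run. The sources used here do not give the annotation, the handling of reads with several matches or strand.

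Symbols from GENCODE M21 (GRCm38) matched 46483 of 47062 identifiers. limma 3.58.1 in R 4.3.3, with a variance trend, was fitted to log2(FPKM + 0.5) of genes that averaged at least 0.5 FPKM, and p-values, two-sided, were adjusted over all genes tested by the Benjamini-Hochberg method at 0.05. Alternatives were pseudocounts of 0.1 and 1, other filters, quantile and median-ratio scaling, a replicate block, each library left out, and log2(scaled count + 1) for a mean of at least 10. Further fits on scaled counts (a replicate block, median-ratio scaling, the FPKM filter and each library left out) were chosen after seeing the data. The steps were tested on simulated data, where recovery was required only of changes of at least 2-fold. That test therefore does not show whether a difference as small as that of Efna5 would be called. Intervals and p-values cover the spread between these libraries, which may be technical. No 2 libraries held identical values beyond chance ties.

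The members and lists were chosen with earlier results of these data known. Named genes are the 8 ephrins, Sp9, list members past the threshold with up to 4 others of smallest p, and the 5 genes most like Efna5 and Efnb3. The values of Scube1 and of single direct pathway, interneuron, astrocyte and microglia markers were added after they were seen. Some genes that this rule takes are left out.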

Additional observations from a re-analysis of the deposited data

How the results depend on the processing

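Efna5 was lower in the mutants under all 23 alternatives, with a log2 fold change from -0.82 to -0.58 both over all of them and with 1 library left out on FPKM. On FPKM no alternative called it (limma adjusted p from 0.434 to 1). It passed on scaled counts (-0.73, adjusted p = 0.0400), with median-ratio scaling of these (-0.73, 0.0408) and with the FPKM filter on them (-0.73, 0.0430), so the number of ephrins past the threshold was 0 as reported and 1 in each of these 3 fits. It did not pass on scaled counts with a replicate block (0.0905). The replicate numbers do not pair the libraries (correlations of same-numbered deviations 0.002, 0.037 and 0.043), and with a replicate block on FPKM the Efna5 log2 fold change was -0.71 with an adjusted p of 0.868 and 0 ephrins passed. No pathway list member passed in the FPKM fit as reported, and none did under any of the 23 alternatives.

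The directions of the small differences were not stable, and the cause was not tested. Efnb1 was -0.0033 with quantile normalization. With 1 library left out on FPKM, the log2 fold change ran from -0.20 to 0.067 for Efna3, -0.18 to 0.069 for Efna4, -0.11 to 0.12 for Efnb1, -0.0079 to 0.10 for Efnb2 and -0.0056 to 0.045 for Efnb3. On scaled counts with 1 library left out, Efna3 turned to 0.015 (without mutant replicate 3) and 0.090 (control replicate 2), Efna4 to 0.088 (mutant replicate 1) and 0.035 (control replicate 3), Efnb1 to -0.13 (mutant replicate 3) and -0.040 (control replicate 2), and Efnb3 to -0.0037 (mutant replicate 1), -0.0073 (control replicate 2) and -0.0033 (control replicate 3). Efna1 and Efna2 were above 0 in every fit run, but with 1 library left out on FPKM they ran from 0.058 to 0.35 and from 0.066 to 0.20. The number of ephrins at an unadjusted p under 0.05 was 1 as reported and 2 without mutant replicate 3 (Efna2 higher, limma unadjusted p = 0.0377 and adjusted p = 0.768 on FPKM, 0.0401 and 0.648 on scaled counts) and on scaled counts without mutant replicate 2 (Efnb2 higher, 0.0496 and 0.973). Efna1 could not be fitted at a mean FPKM of at least 1. The planned count models were not run, since the count columns are scaled and also hold vanishing estimates that are not whole reads. Depth limits Efna1 and Efna4 most, at 33.0 fragments or fewer a library.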
